A study of Bos taurus with 6 samples.

Results

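The genes described here are the muscle ubiquitin ligases known from atrophy and the FOXO transcription factors that act above them. The list held 7 genes, FBXO32, TRIM63, TRIM54, TRIM55, FOXO1, FOXO3 and FOXO4. It was chosen with earlier results of these data known. Every probe set whose platform annotation gives exactly 1 symbol, and that symbol on the list, was taken, without regard to its values. This gave 4 of 24016 probe sets, 2 for FBXO32, 1 for TRIM54 and 1 for FOXO4, and thus 3 of the 9155 genes named on the array. TRIM63, TRIM55, FOXO1 and FOXO3 had no such probe set and were not analysed here. All 4 probe sets passed the filter on dim signals and were among the 18012 tested.

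The samples were longissimus dorsi, a long back muscle, from 3 Japanese Black steers, a beef breed known for fat within the muscle, and from 3 Holstein steers, a breed kept mainly for milk. All 6 animals had received energy-rich feed, so the comparison asked how the breeds differed under that feed and not how muscle responded to it. Each animal was measured on 1 Affymetrix array, and the labels give no ages. The animals are called Japanese Black 1 to 3 and Holstein 1 to 3.

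In muscle, FBXO32 encodes atrogin-1, the substrate-binding F-box subunit of a multi-protein ubiquitin ligase. TRIM63, TRIM55 and TRIM54 encode the MuRF proteins, RING-type ligases that sit on the sarcomere and on microtubules. Together with FBXO32, TRIM63 is the best known marker of muscle wasting in rodents. FOXO factors switch on FBXO32 and TRIM63 when insulin and growth factor signals are weak. When those signals are strong, the kinase AKT phosphorylates the FOXO factors, which then leave the nucleus.

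FBXO32 had a larger breed difference than TRIM54 or FOXO4, with the higher mean in Japanese Black muscle, but it did not pass the test. At the brighter of its 2 probe sets the signal was 2768, 4001 and 3734 intensity units in Japanese Black 1 to 3. It was 1184, 2780 and 1749 intensity units in Holstein 1 to 3. Japanese Black 2 and 3 lay above all Holstein animals, Holstein 1 and 3 lay below all Japanese Black animals, and Holstein 2 and Japanese Black 1 were almost equal, so the breeds overlapped. After quantile normalization or median centring of the arrays Holstein 2 lay just below Japanese Black 1 at this probe set, and the breeds no longer overlapped. The mean was 3501 ± 649 in Japanese Black and 1904 ± 809 in Holstein (SD, n = 3 each). Differences are given as Japanese Black minus Holstein in units of log2(signal + 16). For this probe set the difference was 0.94 (SE 0.28, 95% interval 0.30 to 1.58), or 1.92-fold. The adjusted p was 0.321, above the threshold of 0.05.

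The dimmer FBXO32 probe set gave the same picture on the deposited signals. Its signal was 1393, 2174 and 1919 in Japanese Black 1 to 3, against 578, 1487 and 816 in Holstein 1 to 3. The order of the animals was that of the first probe set. At the dimmer probe set, however, the breeds still overlapped after quantile normalization or median centring. On the deposited signals 19.8% of all tested probe sets did not overlap, 11% with Japanese Black higher. The means of the dimmer probe set were 1829 ± 398 in Japanese Black and 960.3 ± 471 in Holstein (SD, n = 3 each). The log2 difference was 1.002 (SE 0.32, 95% interval 0.28 to 1.72), with an adjusted p of 0.324. The log2 values of the 2 probe sets correlated at r = 0.997 over the 6 arrays. Both report the same RNA extracts, so they count as 1 measurement of the gene and not as independent evidence.

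**Figure D1:**
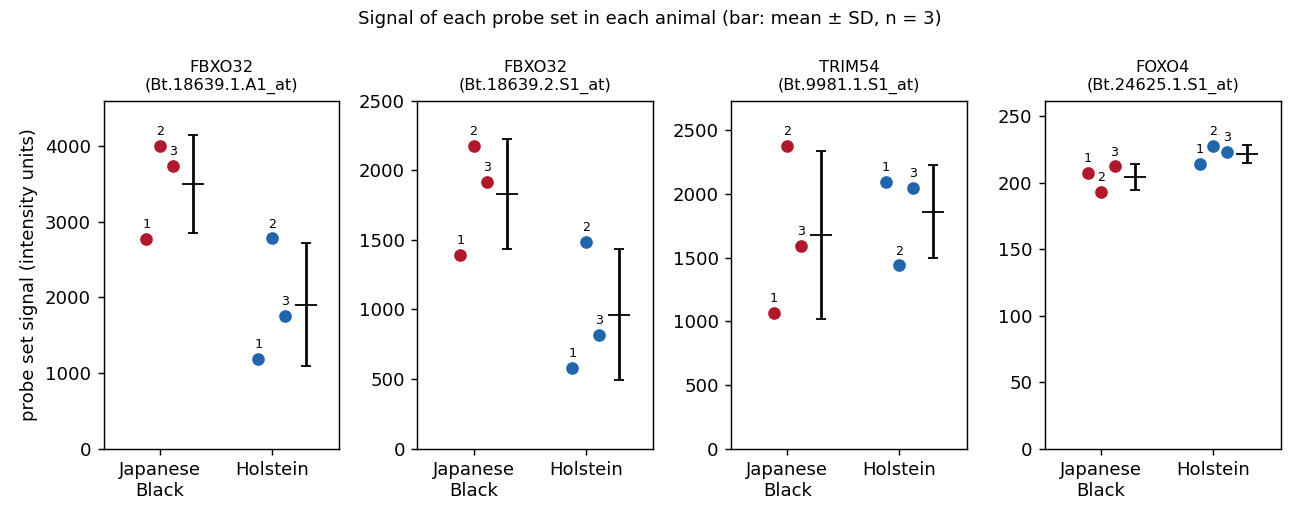
Signal in intensity units (vertical axes, each starting at 0) of the FBXO32 (2 panels), TRIM54 and FOXO4 probe sets in each animal, Japanese Black left of Holstein. Points are animals with their number, and the bar gives mean ± SD (n = 3). FBXO32 lies highest in Japanese Black 2 and 3 and lowest in Holstein 1 and 3 at both probe sets, TRIM54 overlaps between the breeds, and FOXO4 hardly varies.

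Against all probe sets, the FBXO32 difference was large in size. A difference at least as large in either direction was found for 1.23% of the 18012 probe sets at the brighter probe set's value and for 1.02% at the other. None of the 4 probe sets was among the 0.0167% of all probe sets (3 of 18012) that passed the adjusted threshold in limma. An unadjusted p under 0.05 was reached by 12.6% of all probe sets; for 7.31% the Japanese Black mean was the higher one and for 5.28% the lower. Both FBXO32 probe sets reached it with the higher mean in Japanese Black, and those of TRIM54 and FOXO4 did not. With unmoderated variances neither FBXO32 probe set reached it, and the 95% intervals of their differences, -0.14 to 2.02 and -0.20 to 2.21, included 0.

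The spread of FBXO32 between animals of 1 breed was also large. Within Holstein the highest animal read 2.35 times the lowest at the brighter probe set, and within Japanese Black 1.45 times. The SD of log2 within breeds was 0.48 at that probe set, against a median of 0.23 over all tested probe sets, and 92.9% of probe sets had a smaller one. Leaving out 1 animal moved the difference between 0.65 (without Holstein 1) and 1.26 (without Holstein 2) at the brighter probe set. At the dimmer one it lay between 0.70 and 1.37, again without Holstein 1 and without Holstein 2. The direction was the same in all 6 of these fits at both probe sets, and the adjusted p lay between 0.112 (without Holstein 2) and 0.653.

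**Figure D2:**
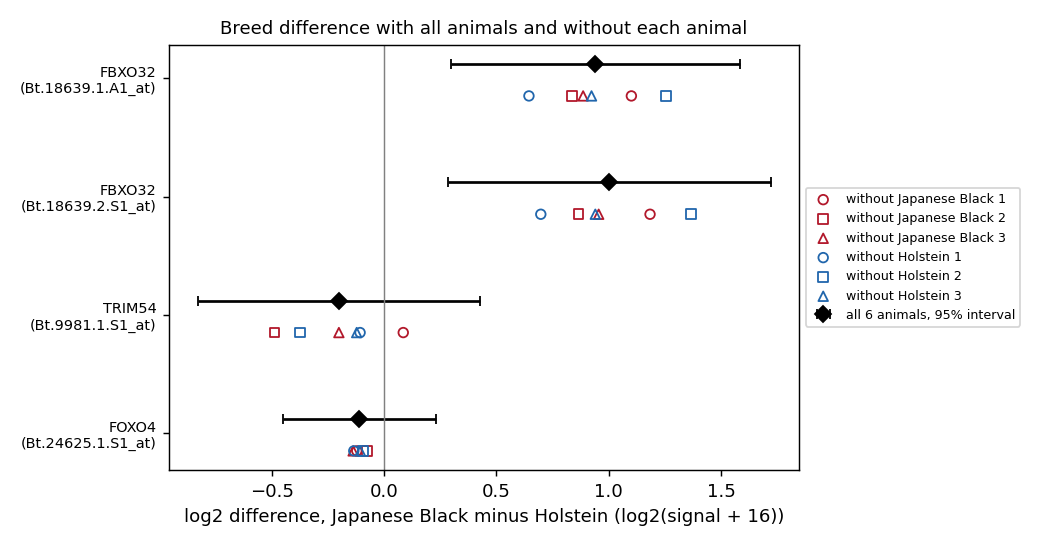
Log2 difference, Japanese Black minus Holstein, of the 4 probe sets (horizontal axis, log2(signal + 16) scale). Diamonds are all 6 animals with limma's 95% interval, and open symbols leave out 1 animal each, red for Japanese Black and blue for Holstein. Both FBXO32 probe sets stay above 0 throughout, and TRIM54 crosses 0 without Japanese Black 1.

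Some properties of the arrays differed between the animals, and they followed FBXO32 only in part. The 3′ to 5′ signal ratio of the elongation factor control, a sign of RNA integrity and labelling, was 0.449, 0.431 and 0.455 in Japanese Black 1 to 3, against 0.3498, 0.405 and 0.305 in Holstein 1 to 3. Holstein 1 and 3, which were lowest in FBXO32, were also lowest in this ratio. The ratio of the actin control was 1.11 to 1.14 in Japanese Black and 1.07, 1.05 and 1.003 in Holstein 1 to 3. That of the GAPDH control overlapped, at 0.858 to 0.928 in Japanese Black and 0.884, 0.819 and 0.796 in Holstein 1 to 3. In the actin and GAPDH ratios Holstein 1, the lowest in FBXO32, was the highest Holstein animal. The part of the control ratios in the FBXO32 difference was not tested. Single arrays stood apart in other ways. The BioB hybridisation controls averaged 273 to 329 in Japanese Black and 319 to 494 in Holstein, where the highest value was that of Holstein 3. Japanese Black 3 had an upper quartile of 205 over all its signals, while the remaining animals had 172 to 181. The brighter FBXO32 probe set differed by 0.92 without Holstein 3 and by 0.89 without Japanese Black 3.

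Of 12 muscle fibre markers, 9 were named on the array, 5 with the higher and 4 with the lower mean in Japanese Black. Their summed signal was 109600 to 114850 in Japanese Black and 110627 to 111628 in Holstein, and 0 of them were at 0 in every array, as in each of the other marker lists. Apart from ATP2A1, these probe sets read between 10090.1 and 15874 on every array, and whether such bright signals are compressed was not tested. ACTA1, skeletal muscle actin, read 14272, 14679 and 15099 in Japanese Black 1 to 3 and 14058, 13606 and 13643 in Holstein 1 to 3. CKM, muscle creatine kinase, was separated the other way, at 11917 to 12893 in Japanese Black and 13468 to 14562 in Holstein. The 7 named slow fibre markers summed to 71306 to 81385 in Japanese Black and 73213 to 75944 in Holstein, and the 8 named fast fibre markers to 98134 to 100285 in Japanese Black and 98907 to 101520 in Holstein. Of the 7 slow fibre markers 6 had the higher mean in Japanese Black and 1 the lower, and of the 8 fast ones 4 and 4. The breeds did not overlap for 3 slow markers, 2 of them higher in Japanese Black, and for 2 fast ones, 1 of them higher. Over all tested probe sets 19.8% did not overlap. Single members went against these sums. The slow myosin light chain gene MYL3 had a difference of -1.29 (SE 0.32) and ACTN3, the fast fibre actinin, one of -0.34 (SE 0.09), both lower in Japanese Black without overlap, with adjusted p of 0.287 and 0.310.

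Markers of other cells varied more. The 9 named adipocyte markers summed to 3516, 4443 and 13906 in Japanese Black 1 to 3 and to 7275, 12053 and 1840 in Holstein 1 to 3. Japanese Black 3 and Holstein 2 were therefore rich in adipocyte RNA, and Holstein 3 poor. The 10 endothelial markers summed to 2214 to 3299 in Japanese Black and 3094 to 3885 in Holstein, with 9 of the 10 genes lower in Japanese Black. The sums of the 8 fibroblast markers were 7206 to 12562 in Japanese Black and 9584 to 11137 in Holstein. Of these genes 6 had the lower mean in Japanese Black, with a median difference of -0.31; DPT had -0.70 and COL3A1 -0.64, against 0.66 for THY1. The 10 named leukocyte markers summed to 628 to 831 in Japanese Black and 647 to 981 in Holstein, and the 7 smooth muscle markers to 10206 to 20906 in Japanese Black and 11641 to 18153 in Holstein. Of 5 tested erythrocyte markers 4 had the lower mean in Japanese Black, among them HBB at -0.63, with a median difference of -0.22. The fifth, GYPC, was by far the brightest and had 0.30, so the sum of the 6 named markers, 3707 to 4942 in Japanese Black and 3353 to 4069 in Holstein, follows that gene. The part of these cells in any difference given here was not tested. In pieces of whole muscle, fewer cells of a type and less RNA per cell cannot be told apart.

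TRIM54, which encodes MuRF3, a RING-type ligase that binds and stabilises microtubules, had overlapping signals in the breeds. Its signal was 1067, 2379 and 1595 in Japanese Black 1 to 3 and 2093, 1440 and 2049 in Holstein 1 to 3. The highest and the lowest of all 6 animals, Japanese Black 2 and Japanese Black 1, were both Japanese Black and differed 2.23-fold. The means were 1680 ± 660 in Japanese Black and 1860 ± 365 in Holstein (SD, n = 3 each). The log2 difference was -0.20 (SE 0.28, 95% interval -0.83 to 0.43), with an adjusted p of 0.773. The sign depended on 1 animal, since leaving out Japanese Black 1 gave 0.09 and leaving out Japanese Black 2 gave -0.49. The order of the animals was not that of FBXO32: Holstein 1, the lowest in FBXO32, was the second highest in TRIM54.

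FOXO4, a forkhead factor of the same family as FOXO1 and FOXO3, was the steadiest of the 4. Its signal was 207, 193 and 212 in Japanese Black 1 to 3, against 214, 228 and 223 in Holstein 1 to 3. All Japanese Black animals lay below all Holstein animals, but Japanese Black 3 and Holstein 1 almost touched. Non-overlap in this direction was found for 8.84% of all tested probe sets, and in either direction for 19.8%. The means were 204 ± 9.84 in Japanese Black and 222 ± 6.998 in Holstein (SD, n = 3 each). The log2 difference was -0.11 (SE 0.15, 95% interval -0.45 to 0.23), with an adjusted p of 0.769. Its SD of log2 within breeds, 0.06, was so small that only 0.866% of probe sets had a smaller one. limma drew this variance toward that of other probe sets, which widened the interval; without that step the SE was 0.04 and the adjusted p 0.504, the lowest of all alternatives, whose highest was 0.913. Non-overlap also held after quantile normalization and after median centring of the arrays.

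The genes with the most similar profile over the 6 arrays were found among 8050 named genes, each at its brightest probe set. For FBXO32 they were TMEM163 (r = 0.994) and PIGH (r = 0.993). For TRIM54 they were CNOT1 (r = 0.994) and PTRH2 (r = 0.988), and for FOXO4 DAPK1 (r = 0.986) and PIK3R2 (r = 0.982). With 6 arrays such values are common, since the median gene had a best partner at r = 0.992.

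The genes around these members were grouped in 6 lists, with each gene at its brightest probe set. In these lists 0 genes passed the adjusted threshold in either direction. Over all 18012 probe sets 51.0% were higher in Japanese Black, and the median log2 difference was 0.0067. That reference includes dim and unnamed probe sets, unlike the lists, which take named genes at their brightest. With the dimmer 50% left out the median over all probe sets was 0.033.

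Among other ubiquitin ligases active in muscle, 14 of 23 listed genes were named and tested. Japanese Black had the higher mean for 9 and the lower for 5 of them. The median difference was 0.11, and 3 genes reached an unadjusted p under 0.05, as did 12.6% of all probe sets. Leaving out Japanese Black 1 gave a median of 0.19, Japanese Black 2 or Holstein 1 a median of 0.03, and Holstein 3 one of 0.06. KLHL41, a kelch protein of the sarcomere that works with cullin ligases, read 6987, 7463 and 7619 in Japanese Black 1 to 3 and 9943, 8641 and 8950 in Holstein 1 to 3. Its difference was -0.32 (SE 0.10, adjusted p 0.325), opposite in sign to that of FBXO32, and the breeds did not overlap. WWP1, a HECT-type ligase, had a difference of 0.70 (SE 0.26) and UBR2, a ligase of the N-degron pathway, one of 0.37 (SE 0.14), both without overlap. MDM2, the ligase of p53, was dim and had a difference of 0.45 (SE 0.25). FBXO40, a further muscle F-box gene, had a difference of 0.11, and TRIM32, a relative of the MuRF genes, one of -0.10; these 2 were chosen after their values were seen.

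The core of the ligase that FBXO32 belongs to, with ubiquitin-conjugating enzymes and ubiquitin proteases, had 12 of 17 listed genes tested. Japanese Black had the higher mean for 11 and the lower for 1. The median difference was 0.19, and 1 gene reached an unadjusted p under 0.05, where 12.6% of all probe sets did. That gene was USP14, a ubiquitin protease bound to the proteasome, at 949 ± 29.4 in Japanese Black and 710.1 ± 77.3 in Holstein (SD, n = 3 each). Its difference was 0.42 (SE 0.15, adjusted p 0.347), and a far dimmer probe set had 0.24 (SE 0.18). UBE4B, which extends ubiquitin chains, had a difference of 0.31, and the conjugating enzymes UBE2G1 and UBE2J1 had 0.26 and 0.28. CUL1, the scaffold that carries F-box proteins, had differences of 0.14, 0.48 and 0.23 at its 3 probe sets, with the brightest first; it was chosen after its values were seen. Without Holstein 3 the median of the list was 0.09, and without Japanese Black 3 it was 0.11.

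Genes that control FOXO factors gave no common direction, with 10 higher and 9 lower of 19 tested (31 listed) and a median of 0.02. SGK1, a kinase that like AKT phosphorylates FOXO factors, had the largest difference of the list. It read 207, 354 and 399.98 in Japanese Black 1 to 3, against 865, 593 and 1789 in Holstein 1 to 3. The breeds did not overlap, and Holstein 1 and 3, lowest in FBXO32, were highest in SGK1. The difference was -1.61 (SE 0.39, adjusted p 0.287), and its second probe set had -1.59 (SE 0.41). PIK3CA, a catalytic subunit of the kinase above AKT, had a difference of 0.73 (SE 0.22) and 0.58 (SE 0.25) at its second probe set. YWHAG, a 14-3-3 protein of the family that holds phosphorylated FOXO in the cytoplasm, had 0.40 (SE 0.15). The other 14-3-3 genes of the list went both ways. YWHAE had 0.32 and YWHAB 0.20, against -0.41 for YWHAZ, -0.37 for YWHAH and -0.36 for YWHAQ. PPARGC1A, a coactivator that restrains FOXO activity in rodent muscle, had 1.11 (SE 0.46), with overlapping breeds. Its dimmer probe sets had 0.88 (SE 0.30) and 0.55 (SE 0.19). AKT1 and AKT2, the kinases themselves, had 0.02 and 0.09 at their brightest probe sets and were named after their values were seen. A total of 5 genes of the list reached an unadjusted p under 0.05 (12.6% of all probe sets), 4 of them with the higher mean in Japanese Black (7.31% of all probe sets). Without 1 animal the median of the list lay between -0.02 (without Japanese Black 3) and 0.07 (without Japanese Black 1).

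**Figure D3:**
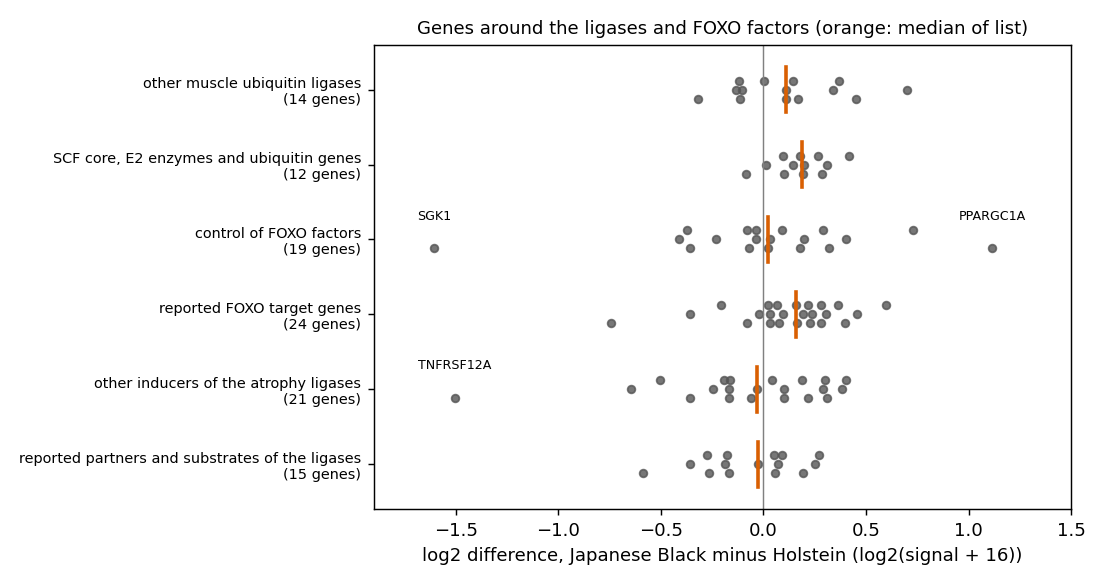
Log2 differences, Japanese Black minus Holstein (horizontal axis, log2(signal + 16) scale), of the tested genes in the 6 lists. Each point is 1 gene at its brightest probe set, orange lines are list medians and the points differ in height only to separate them. SGK1 and TNFRSF12A lie farthest to the left, and most genes lie within 0.5 of 0.

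Reported targets of FOXO factors, known mainly from mouse muscle, had 24 of 32 listed genes tested. Japanese Black had the higher mean for 19 and the lower for 5, and the median difference was 0.16. That median was 0.05 without Holstein 1, 0.07 without Japanese Black 2 and 0.25 without Japanese Black 1. The 2 that reached an unadjusted p under 0.05 both had the lower mean in Japanese Black, where 12.6% of all probe sets reached it and 5.28% in that direction. SQSTM1, the autophagy receptor p62, read 5149, 5046 and 4779 in Japanese Black 1 to 3 and 6328, 5889 and 7006 in Holstein 1 to 3, without overlap. Its difference was -0.36 (SE 0.11, adjusted p 0.321), while a far dimmer probe set had -0.0040. EIF4EBP1, a repressor of translation, had a difference of -0.74 (SE 0.26). SOD2, the mitochondrial superoxide dismutase, had 0.28 (SE 0.14), and MAP1LC3B, a protein of the autophagosome membrane, had 0.31 (SE 0.16).

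Some of these targets were, like FBXO32, lowest in Holstein 1 and 3, and how many of the 24 did so was not counted. Others were not, such as SQSTM1 and BNIP3, which read 3665 in Holstein 1 and 2715 in Japanese Black 1 for BNIP3. PDK4, which blocks pyruvate oxidation, read 6888, 9045 and 8724 in Japanese Black 1 to 3 and 3932, 10435 and 5104 in Holstein 1 to 3. GADD45A, a stress-induced gene, read 1256, 1438 and 902 in Japanese Black 1 to 3 and 622, 1451 and 509.8 in Holstein 1 to 3. In both genes Holstein 1 and 3 were the lowest animals and Holstein 2 the highest, whereas Japanese Black 2 was the highest in FBXO32. The differences were 0.46 (SE 0.31) for PDK4 and 0.60 (SE 0.36) for GADD45A, with adjusted p of 0.541 and 0.499. The other probe sets of PDK4 had 0.27 (SE 0.33) and 0.61 (SE 0.37). PDK4, GADD45A and BNIP3 were chosen after their values were seen. The mean log2 level of the 24 targets relative to all animals was -0.08, 0.18 and 0.08 in Japanese Black 1 to 3, and -0.23, 0.21 and -0.16 in Holstein 1 to 3. Holstein 1 and 3 were again the lowest, whereas Holstein 2 was the highest. The list of the ligase core was also lowest in Holstein 1 (-0.07) and Holstein 3 (-0.18). Other lists did not share these low levels. The list of binding partners and substrates was highest in Holstein 1 (0.06) and Holstein 3 (0.06), and that of other inducers in Holstein 3 (0.16). The cause of these levels was not tested.

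**Figure D4:**
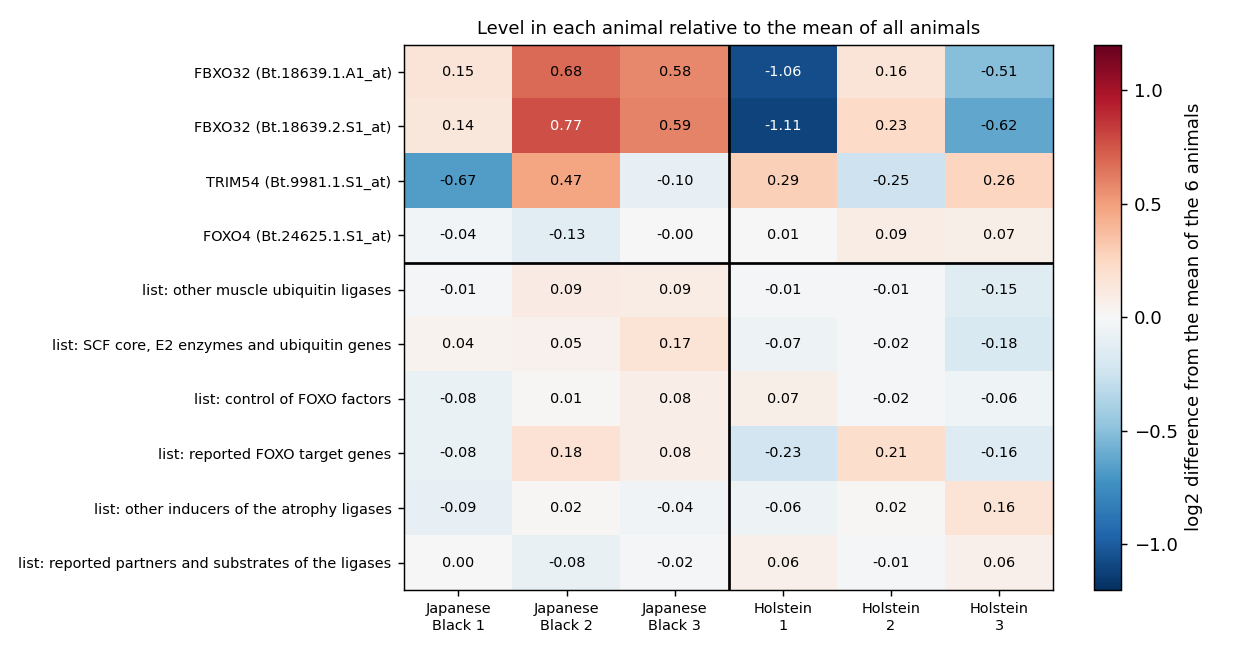
Log2 level of the 4 probe sets and mean log2 level of the named genes of the 6 lists in each animal, as the difference from the mean of the 6 animals (colour scale and printed values). The FBXO32 rows have their lowest values in Holstein 1 (-1.06 and -1.11) and Holstein 3, and the row of FOXO targets is lowest in the same animals (-0.23 and -0.16). The row of the ligase core is lowest in these animals too (-0.07 and -0.18), and the row of partners and substrates is highest in them (0.06 and 0.06).

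Other inducers of the ligases had 21 of 24 listed genes tested, 10 with the higher mean in Japanese Black and 11 with the lower. The median difference was -0.03. TNFRSF12A, the receptor of the cytokine TWEAK, read 238, 912 and 366 in Japanese Black 1 to 3 and 1681, 550.4 and 2121 in Holstein 1 to 3. Holstein 1 and 3 were the highest animals here. The difference was -1.50 (SE 0.56, adjusted p 0.360), and -0.69 (SE 0.40) at a dimmer probe set. TNFRSF1A, a receptor of tumour necrosis factor, had a difference of -0.50 (SE 0.19), without overlap. TFEB, a regulator of lysosomal genes, had 0.40 (SE 0.18), and MYOG, the myogenic factor myogenin, had -0.65 (SE 0.31). KLF15, which acts with the glucocorticoid receptor on both ligase genes in rodents, had 0.22 (SE 0.33). MSTN, which encodes the growth inhibitor myostatin, had 0.10 (SE 0.55) and -0.16 at its dimmer probe set; KLF15 and MSTN were named after their values were seen. TNFRSF12A and TNFRSF1A were the 2 genes of the list with an unadjusted p under 0.05, which 12.6% of all probe sets had. The median of the list was positive without Japanese Black 1 (0.05), Holstein 2 (0.10) or Holstein 3 (0.07).

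Reported binding partners and substrates of the ligases had 15 of 20 listed genes tested, 7 with the higher mean in Japanese Black and 8 with the lower. The median difference was -0.03. SQSTM1, already described, had the smallest p, and 3 genes reached an unadjusted p under 0.05, 2 of them with the lower mean in Japanese Black, against 12.6% and 5.28% of all probe sets. The median of the list was positive without Japanese Black 2 (0.06) or Holstein 1 (0.04). GMEB1, a transcription factor that binds MuRF1, was dim and had a difference of -0.59 (SE 0.20). MYL2, the regulatory light chain of slow myosin, had 0.19 (SE 0.08). CKM read 12821, 11917 and 12893 in Japanese Black 1 to 3 and 14482, 13468 and 14562 in Holstein 1 to 3. The breeds did not overlap, and the difference was -0.18 (SE 0.09, adjusted p 0.434). The myosin heavy chain gene MYH1 and the myosin-binding protein gene MYBPC1 had differences of -0.03 and 0.05; both were named after their values were seen. The breeds did not overlap for 5 of these 15 genes. In the other lists this held for 3 of 14 further ligases, 2 of 12 genes of the ligase core, 4 of 19 control genes, 3 of 24 FOXO targets and 4 of 21 other inducers, to be read against 19.8% of all probe sets.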

How the data were processed

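Per the labels' protocols, DNase-treated total RNA was converted to biotin-labelled cRNA, with 1 Affymetrix array per animal. The deposited table holds linear intensity values for 24128 probe sets, none negative. The submitters' processing notes name GCOS 1.1.1 and Affymetrix Expression Console 1.1; how probes were summarised and whether arrays were scaled was not given in the sources used here. Median signals per array were 48.5 to 54.7. The number of arrays limits the precision.

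The 112 control probe sets were left out, 16 was added, log2 was taken, and the dimmest 25% were dropped. The breed comparison used limma 3.58.1 under R 4.3.3 (eBayes with an intensity trend, two-sided, Benjamini-Hochberg over 18012 probe sets, threshold 0.05). The scale understates differences of dim probe sets. The series design names a paired test, but the labels name no pairs. Symbols came from the platform annotation (1 symbol for 13292 probe sets, several for 86, none for 10638).

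The members and lists were chosen with earlier results of these data known. Named genes were all probe sets of the members, up to 4 genes of smallest p per list, and the 2 closest profiles per member. The 6 lists hold 141 different genes. Planned correlations of FBXO32 with TRIM63 and of FOXO1 with both were not run, and no sequences were used here.

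Tested on simulated data for Japanese Black minus Holstein (18012 probe sets, 5 runs of 200 changed), the fit recovered 1.41%, 34.9% and 88.4% of log2 changes of 0.5, 1 and 2, with 12 of 413 calls false. Figures were drawn with matplotlib 3.10.9. Alternatives were offsets of 1 and 64, other filters, scalings and variance models, array weights, and leaving out each animal.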

Additional observations from a re-analysis of the deposited data

How the results depend on the processing

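Over 15 alternatives per probe set, 59 of 60 values of the members kept their direction and their side of the threshold. The exception was TRIM54, at 0.086 without Japanese Black 1; its other values without 1 animal were as low as -0.49. Without 1 animal FBXO32 lay between 0.65 and 1.26 and between 0.70 and 1.37 at its probe sets, and FOXO4 between -0.14 and -0.07. In the other alternatives FBXO32 lay between 0.91 and 1.02, TRIM54 between -0.29 and -0.11 and FOXO4 between -0.18 and -0.09. The number of all probe sets past the threshold, 3, was 0 with an offset of 1, with the dimmer 50% left out and with unmoderated variances, 10 with array weights, and 0 to 15 without 1 animal (15 without Holstein 2; 0 without Japanese Black 1, 2 or 3); the cause was not tested. Of 60 list medians, 51 moved by less than the SD, between animals of a breed, of the list's mean level. That SD exceeded the size of the median for the FOXO targets (0.19 against 0.16) and the control genes (0.07 against 0.02). It also did for other inducers (0.09 against -0.03) and partners (0.04 against -0.03). In these lists even a change of sign could count as not moved. Other muscle ligases had a median of 0.014 after quantile normalization and 0.027 to 0.19 without 1 animal. Without 1 animal the ligase core had 0.087 to 0.22, the FOXO targets 0.05 to 0.25, the control genes -0.02 to 0.07, other inducers -0.081 to 0.099 (positive without Japanese Black 1 or Holstein 2 or 3), and partners -0.041 to 0.055. No paired analysis was possible because no label ties an animal of one breed to one of the other.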
